A study of Mus musculus with 8 samples.

Results

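The genes described here encode the respiratory chain, the set of protein complexes in the inner mitochondrial membrane that passes electrons from NADH and succinate to oxygen and uses the energy to make ATP. They were chosen by symbol from the table of raw counts, as protein-coding genes of the GENCODE M21 annotation whose symbol starts with Nduf (complex I), Sdh (complex II), Uqcr (complex III), Cox4 to Cox8 (complex IV), Atp5 (complex V), mt-Nd, mt-Cytb, mt-Co or mt-Atp. The rule found 110 genes among the 39056 in the table, 97 of them in the nucleus and 13 on the mitochondrial genome. The prefixes also take in 14 nuclear assembly factors and related genes, such as Ndufaf4 and Sdhaf1, and these were kept apart from the subunits. Ndufa4, despite its name, was counted with complex IV, of which it is now known to be a subunit.

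The cells were CD4+ T cells sorted by flow cytometry from spleen and lymph nodes that had been pooled, in C57BL/6J mice given bone marrow progenitors of the genotype CD4-Cre TCRβtg Tcra-/-. The progenitors of the SAS group had been transduced with a retrovirus carrying the SAS TCRα chain, and those of the ANT group with one carrying the ANT TCRα chain. Both groups thus share the Cre transgene driven by CD4, the TCR beta transgene, the missing Tcra gene and the retroviral transfer, and each group is 1 receptor, so it is called a clone below. SAS had 4 libraries (replicates 1, 2, 3 and 6) and ANT had 4 libraries (replicates 1, 3, 4 and 5), with 27600959 to 31810799 counts each. The labels do not say that each library came from its own mouse, so the p-values measure the spread between these libraries, which may be technical in part.

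Complex I takes electrons from NADH and complex II from succinate, complex III passes them from coenzyme Q to cytochrome c, and complex IV hands them to oxygen. Complexes I, III and IV pump protons, and complex V, the ATP synthase, lets the protons flow back and makes ATP. Apart from complex II, every complex is built from proteins of both genomes, so its assembly draws on transcripts of the nucleus and of the mitochondrion. Resting CD4+ T cells are known to rely on this pathway for most of their ATP, and activated T cells add glycolysis to it.

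The 8 libraries carried the markers of CD4+ T cells throughout, with a summed level of 7 such genes of 3960 to 4237 CPM (counts per 1e6 counts of the scaled library) in SAS and 4455 to 5188 CPM in ANT. Of these 7 genes, Cd28 was higher and Thy1 was lower in SAS. Markers of B cells summed to 1.41 to 3.37 CPM in SAS and 1.38 to 2.93 CPM in ANT, markers of myeloid cells to 2.00 to 5.68 CPM in SAS and 0.662 to 1.45 CPM in ANT, and Cd8a with Cd8b1 to 1.99 to 4.49 CPM in SAS and 14.1 to 66.8 CPM in ANT. Their part in the results below was not tested. A lower level of a transcript in a bulk sample cannot be told apart from fewer cells that make it.

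A long stretch of the mouse mitochondrial genome is also present in the nucleus, on chromosome 1, and the genes within it had few counts. In the annotation, 7 pseudogenes lie side by side on the minus strand at chr1:24611535-24616197 (mm10), and each matches a mitochondrial gene. Gm28661 matched mt-Co2 at 681 of 681 bases, Gm10925 matched mt-Atp6 at 678 of 678, Gm28437 matched mt-Co3 at 783 of 783 and Gm28439 matched part of mt-Nd4 at 876 of 876. Gm28438 matched mt-Nd3 at 344 of 345 bases, with the substitution T3C counted from the first base of mt-Nd3. Gm29216 matched the end of mt-Co1 at 486 of 492 bases. The first 100 bases of mt-Co2 (chrM:7013-7112, plus strand) and of Gm28661 (chr1:24615466-24615565, minus strand) are printed to show the identity, from the GENCODE M21 transcripts. A read that lies within the printed stretch has no base that tells the mitochondrial from the nuclear gene.
mt-Co2: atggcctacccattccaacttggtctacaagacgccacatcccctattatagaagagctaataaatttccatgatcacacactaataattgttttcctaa
Gm28661: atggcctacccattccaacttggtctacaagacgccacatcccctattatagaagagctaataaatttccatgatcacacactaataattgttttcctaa

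Counts were low where nearly all of the sequence was shared. mt-Co1 had 207993 to 397270 counts per library, whereas mt-Co2 and mt-Co3, which encode the other core subunits of the same enzyme, had 99 to 158 and 121 to 226 counts. Between 98.0% and 100% of the 50-base windows of mt-Co2, mt-Co3, mt-Atp6, mt-Nd3 and mt-Nd4l occurred in another annotated gene, against 51.1% for mt-Co1 and 62.2% for mt-Nd4. mt-Nd3 had 49 to 88 counts, mt-Atp6 had 96 to 153 and mt-Nd4l had 10 to 22. mt-Atp8 had 27 to 63 counts and no shared window in an annotated gene, but it lies opposite the unannotated gap between Gm10925 and Gm28661. All 7 nuclear copies together had 439 to 683 counts per library. How reads that map to several places were counted was not given in the sources used here, so the levels of mt-Co2, mt-Co3, mt-Atp6, mt-Atp8, mt-Nd3 and mt-Nd4l cannot be read as levels of those transcripts, and those of mt-Co1 and mt-Nd4 are uncertain in part.

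**Figure D1:**
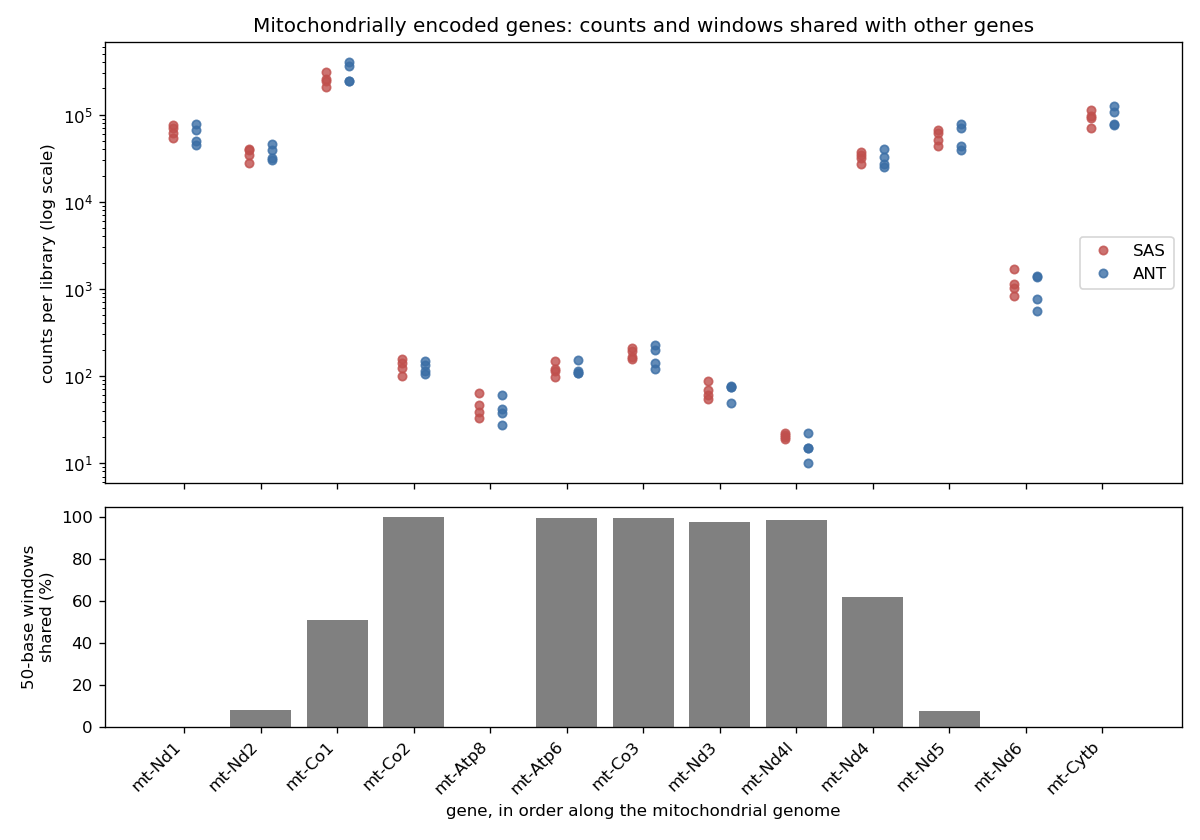
Upper panel: counts per library (log scale) of the 13 mitochondrially encoded genes, in their order along the mitochondrial genome, for 4 SAS (red) and 4 ANT (blue) libraries, 1 point per library. Lower panel: share of each gene's 50-base windows that occur in another annotated gene. The genes with nearly all windows shared, and mt-Atp8 between them, sit at 10 to 226 counts, while mt-Co1 sits at 207993 to 397270.

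No mitochondrially encoded gene was called higher or lower. At an adjusted p under 0.05 (edgeR's quasi-likelihood test, Benjamini-Hochberg adjustment over 12619 genes), 0 of 13 were called, and the clones overlapped for all 13. Of all genes tested, 37.4% were called and 38.1% did not overlap. The 13 include mt-Co2, mt-Co3, mt-Atp6, mt-Atp8, mt-Nd3 and mt-Nd4l, whose counts cannot be read as transcript levels. An unadjusted p under 0.05 was reached by 0 of the 13 in edgeR, and limma-voom and DESeq2 called 0. mt-Co1, the catalytic core of complex IV, stood at 9485, 7292, 8933 and 7785 CPM in SAS replicates 1, 2, 3 and 6, against 13701, 13254, 8723 and 8274 CPM in ANT replicates 1, 3, 4 and 5. ANT replicates 1 and 3 were the highest of the 8 libraries, and ANT replicates 4 and 5 lay inside the SAS range. Its log2 fold change, SAS over ANT, was −0.39 (SE 0.19, 95% interval −0.82 to 0.04, adjusted p 0.137). Without ANT replicate 5 the value was −0.52 (adjusted p 0.0483), and without ANT replicates 4 and 5 it was −0.71 (0.00331), so the call on mt-Co1 turned on those libraries.

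mt-Nd1, a core membrane subunit of complex I, was nearly level, with 2297, 1882, 2429 and 1993 CPM in SAS against 2699, 2471, 1793 and 1542 CPM in ANT. Its log2 fold change was 0.02 (95% interval −0.39 to 0.43). The ANT values spanned the SAS values on both sides. mt-Cytb, the cytochrome b of complex III, had 3476, 2462, 3153 and 3118 CPM in SAS against 4274, 3926, 2794 and 2635 CPM in ANT (log2 fold change −0.16, 95% interval −0.56 to 0.25). mt-Nd5, a proton-pumping subunit of complex I, had 2038, 1532, 2112 and 1649 CPM in SAS against 2720, 2560, 1424 and 1487 CPM in ANT (−0.16, interval −0.67 to 0.35). In both genes ANT replicates 1 and 3 were high and ANT replicates 4 and 5 low. The log2 fold changes of the remaining genes with few shared windows, mt-Nd2 and mt-Nd6, were −0.16 and 0.06, and mt-Nd4 stood at −0.05. mt-Nd6 had 552 to 1670 counts per library, against 27740 to 46200 for mt-Nd2. The 95% interval of mt-Nd6 was −0.61 to 0.72. Without ANT replicates 4 and 5, mt-Cytb (−0.45, adjusted p 0.036), mt-Nd5 (−0.55, 0.0149) and mt-Nd2 (−0.40, 0.0452) were called lower.

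The shares of mt-Co1, mt-Nd1 and mt-Nd4 in the pool of mitochondrial counts separated the clones, and the size of the pool did not. mt-Co1 made up 48.0%, 48.2%, 46.5% and 46.5% of the counts of the 13 genes in SAS, against 51.8%, 53.2%, 51.6% and 52.1% in ANT. All 4 SAS libraries lay below all 4 ANT libraries. The share of mt-Nd1 was 11.6%, 12.4%, 12.6% and 11.9% in SAS, against 10.2%, 9.92%, 10.6% and 9.70% in ANT, with SAS above ANT throughout. The ratio of mt-Co1 to mt-Nd1 was 4.13, 3.87, 3.68 and 3.91 in SAS and 5.08, 5.36, 4.87 and 5.37 in ANT, and the ranges did not overlap. This ratio does not depend on the scaling of the libraries. It was found after the values were seen, so no p is given, and it shows only that the 2 transcripts changed unequally. The 13 genes took 2.04%, 1.56%, 1.94% and 1.76% of all counts in SAS and 2.54%, 2.44%, 1.62% and 1.54% in ANT, and these shares overlapped.

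Nuclear members were measured more evenly. Of the 97, 90 had enough counts to be tested, and 13 of the 90 were called, 9 higher and 4 lower in SAS. That is 13 of all 103 members tested, or 12.6%. Among all 12619 genes tested, 37.4% were called, 19.8% higher and 17.7% lower, so the members' share was below that of the table. SAS lay wholly above ANT for 9 members and wholly below for 2 (Cox7a2l and Sdha), against 38.1% of all genes in either direction, 20.5% above and 17.7% below. Members called with a change of at least 1.5-fold numbered 4, against 26.6% of all genes. Among the 88 members that averaged at least 10 CPM 14.8% were called, against 36.9% of all genes at that level. These shares are a description, with no test of their difference.

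The changes were small as well as few. The median absolute log2 fold change was 0.16 over the members tested and 0.35 over all genes tested, with median standard errors of 0.16 and 0.17. The signed median was 0.01 for the members (53 positive, 50 negative) and −0.003 for all genes. At an unadjusted p under 0.05 (edgeR) there were 20 of the 103 members, or 19.4%, against 46.5% of all genes. Of the 90 members not called, 63 had a 95% interval that lay inside a 1.5-fold change in either direction. For the others a change of that size was within the interval.

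**Figure D2:**
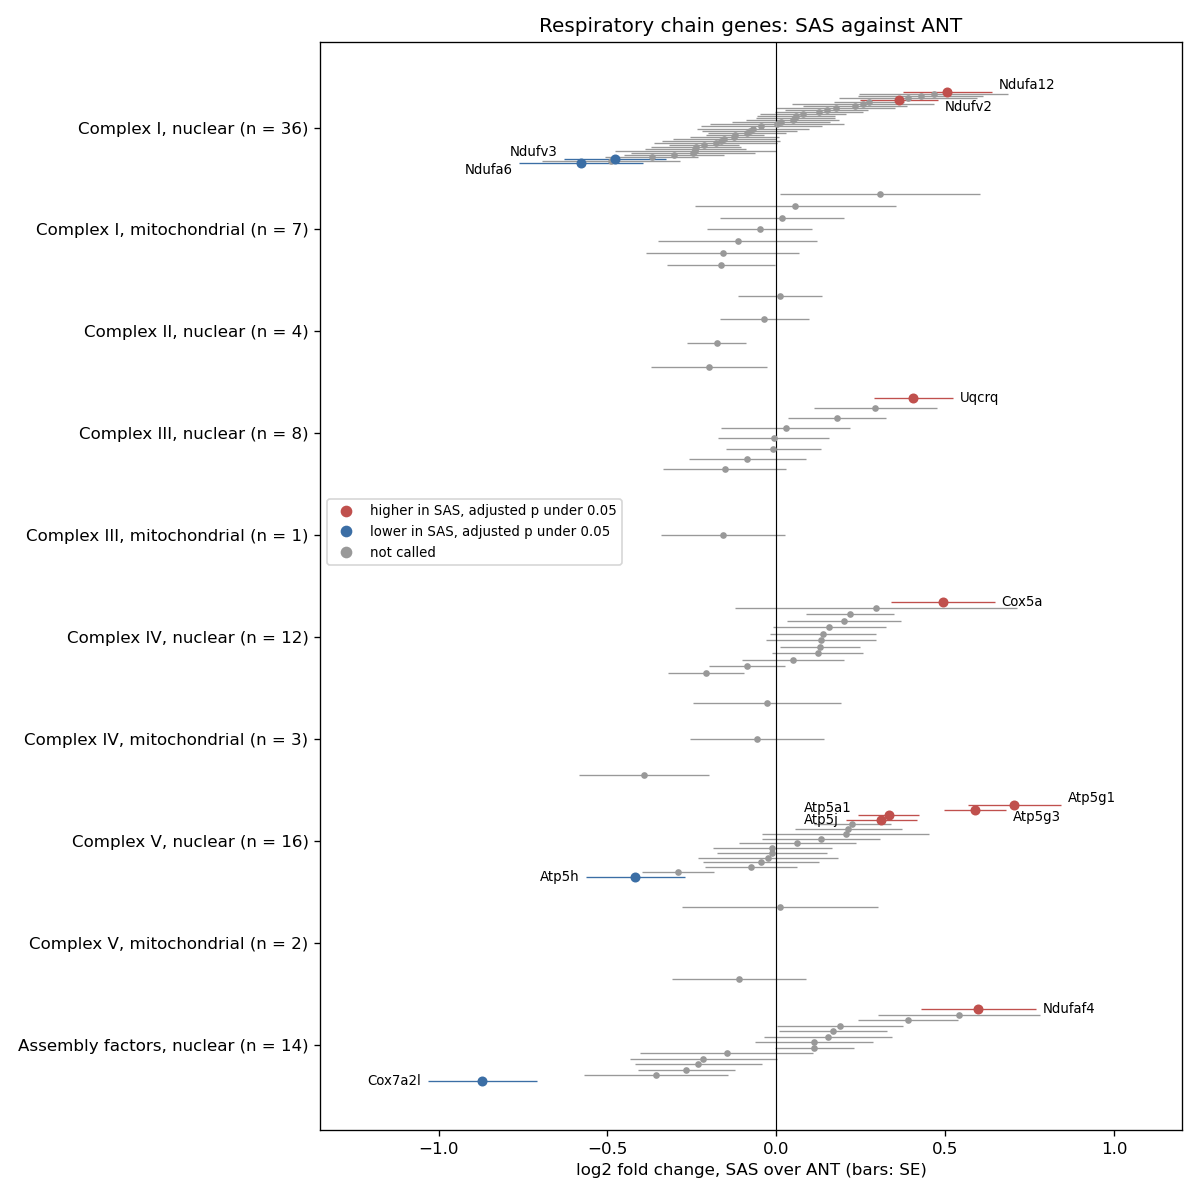
Log2 fold change, SAS over ANT, of the 103 members tested, grouped by complex and by genome of origin, with the standard error as a bar. Red points are the 9 members higher in SAS and blue points the 4 lower in SAS at an adjusted p under 0.05. Most points lie near 0, the mitochondrial rows hold no called gene, and Cox7a2l at −0.87 lies farthest from 0.

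Cox7a2l had the largest change among the 103 members tested. Its protein is known to join complex III to complex IV in respiratory supercomplexes, and C57BL/6 mice carry a shorter form of it. The gene (chromosome 17, 83501918 to 83517330, minus strand, mm10) stood at 221.5, 158.3, 179.3 and 161.2 CPM in SAS, against 392.9, 373.2, 291.9 and 259.3 CPM in ANT. The highest SAS library, replicate 1, was below the lowest ANT library, replicate 5. Means were 180 ± 29.2 CPM in SAS, against 329 ± 64.0 CPM in ANT (SD, n = 4 each), and the log2 fold change was −0.87 (SE 0.16, adjusted p 0.00181). The call held in 19 of 20 alternatives and was lost only when the test was set against a 1.5-fold change (adjusted p 0.0887). Of its 50-base windows 17.7% occur in another annotated gene, so a part of its reads may be shared. Its paralog Cox7a2, the complex IV subunit proper, averaged 44.7 ± 5.22 CPM in SAS, against 43.2 ± 8.45 CPM in ANT (log2 fold change 0.05, 95% interval −0.29 to 0.38).

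Of the 16 nuclear subunits of the ATP synthase, 5 were called, 4 higher (Atp5g1, Atp5g3, Atp5a1 and Atp5j) and 1 lower (Atp5h). That is 31.2%, below the 37.4% called among all genes. With library totals alone as the scaling, 5 genes of complex V were higher and 0 lower, where 24.3% of all genes were higher and 13.2% lower. The c subunit forms the rotating ring in the membrane, and 3 genes, Atp5g1, Atp5g2 and Atp5g3, are known to encode the same mature protein behind different import signals. Atp5g1 had 59.9, 52.9, 50.3 and 55.2 CPM in SAS against 36.5, 39.9, 31.9 and 25.7 CPM in ANT. Atp5g3 had 171.1, 154.8, 184.2 and 157.5 CPM in SAS against 112.5, 111.5, 115.1 and 105.5 CPM in ANT. For both genes all SAS libraries were above all ANT libraries. The log2 fold changes were 0.70 (SE 0.14, adjusted p 0.00251) for Atp5g1 and 0.59 (SE 0.09, adjusted p 0.000648) for Atp5g3, and both calls held in 19 of 20 alternatives, the exception being the test against a 1.5-fold change (0.326 and 0.798).

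The third gene, Atp5g2, was not called. Its levels were 76.2, 51.9, 53.3 and 59.6 CPM in SAS and 76.0, 77.5, 47.7 and 43.8 CPM in ANT. In ANT the libraries split, with replicates 1 and 3 close to the highest SAS library and replicates 4 and 5 below the lowest. The log2 fold change was −0.02 (95% interval −0.49 to 0.44, adjusted p 0.94). The ratio of Atp5g1 to Atp5g2 counts was 0.787, 1.02, 0.944 and 0.926 in SAS against 0.480, 0.514, 0.670 and 0.586 in ANT, without overlap, while the ratio of Atp5g3 to Atp5g2 overlapped. These ratios use the same counts as the calls, so they add no separate support, and no p is given. Of the 50-base windows, 10.6% of Atp5g1, 14.8% of Atp5g2 and 0% of Atp5g3 occur in another annotated gene.

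The promoters of the c subunit genes are shown because 2 of the 3 genes moved together. They run from 250 bases before to 50 bases after the start site, from RefSeq on GRCm38.p6, with capitals for the letters of the nuclear respiratory factor 1 (NRF1) motif (GCGC, any 1 base, then TGCGC), searched on both strands. Atp5g1 lies at chr11:96075582-96075881, Atp5g3 at chr2:73911277-73911576 and Atp5g2 at chr15:102670998-102671297, all on the minus strand.
Atp5g1: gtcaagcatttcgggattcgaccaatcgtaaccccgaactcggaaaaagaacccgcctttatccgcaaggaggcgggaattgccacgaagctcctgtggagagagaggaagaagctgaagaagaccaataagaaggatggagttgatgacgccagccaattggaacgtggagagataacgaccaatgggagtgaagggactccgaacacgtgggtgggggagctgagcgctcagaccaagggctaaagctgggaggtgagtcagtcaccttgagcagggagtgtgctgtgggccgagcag
Atp5g3: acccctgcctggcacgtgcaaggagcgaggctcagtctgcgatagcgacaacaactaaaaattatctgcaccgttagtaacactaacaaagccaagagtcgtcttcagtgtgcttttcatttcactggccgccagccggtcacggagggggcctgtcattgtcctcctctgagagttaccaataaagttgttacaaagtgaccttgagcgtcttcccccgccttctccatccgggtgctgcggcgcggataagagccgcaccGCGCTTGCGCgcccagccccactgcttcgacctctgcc
Atp5g2: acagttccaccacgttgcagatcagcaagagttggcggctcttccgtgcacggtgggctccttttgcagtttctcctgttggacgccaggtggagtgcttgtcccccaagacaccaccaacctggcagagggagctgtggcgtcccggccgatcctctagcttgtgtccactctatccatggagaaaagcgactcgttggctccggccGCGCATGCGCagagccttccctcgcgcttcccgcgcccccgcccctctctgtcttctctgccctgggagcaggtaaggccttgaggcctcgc

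The motif stood in the promoter of Atp5g3, which was called, and of Atp5g2, which was not, and these letters were not in the window of Atp5g1, which was called. Over all members with a RefSeq promoter (83 promoters of 78 genes), 22 promoters, or 26.5%, held the NRF1 motif, against 4.60% of 32851 promoters in the table. The ETS family motif CCGGAAG stood in 25.3% of the members' promoters and 8.86% of all. The YY1 motif AAGATGGCG stood in 9.64% of the members' promoters and 1.40% of all. The full set of promoters was not matched to the members for expression or base composition, and the differences in share were not tested. NRF1, ETS factors of the GABP type and YY1 are known regulators of respiratory genes. The transcripts of Nrf1, Gabpa and Yy1 were not called, with log2 fold changes of −0.18, −0.02 and 0.02. For Nrf1 all SAS libraries (64.1 to 78.0 CPM) lay below all ANT libraries (78.7 to 86.3 CPM), while Gabpa and Yy1 overlapped.

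Among the other parts of the ATP synthase, the catalytic head makes ATP and the peripheral stalk holds it in place. Atp5a1, the alpha subunit of the head, had 672.8, 602.0, 659.5 and 635.8 CPM in SAS against 507.8, 511.3, 528.8 and 492.9 CPM in ANT. SAS lay above ANT in every library, and the log2 fold change was 0.33 (SE 0.09, adjusted p 0.015). It was not called when every gene with a count was tested (0.0626). Atp5b, the beta subunit that carries the catalytic sites, had 814.6, 651.3, 731.1 and 726.4 CPM in SAS against 677.7, 678.5, 597.7 and 547.7 CPM in ANT, with SAS replicate 2 inside the ANT range. Its log2 fold change of 0.22 was not called (adjusted p 0.151), but library totals alone gave a call (0.32, 0.0491). In the stalk, Atp5j had 93.5, 72.9, 90.4 and 80.4 CPM in SAS against 72.2, 70.0, 66.4 and 63.5 CPM in ANT, so that the clones were just apart (log2 fold change 0.31, SE 0.11, adjusted p 0.0407). Atp5h had 130.1, 96.9, 101.6 and 111.0 CPM in SAS against 174.9, 162.1, 132.7 and 117.3 CPM in ANT, with overlap (−0.42, SE 0.15, adjusted p 0.0455).

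The calls on both stalk genes depended on single libraries. Atp5j was called in 9 of 20 alternatives and was lost without any one of SAS replicates 1, 3 and 6 (adjusted p 0.111, 0.107 and 0.0674) or of ANT replicates 1, 3, 4 and 5 (0.0551, 0.0757, 0.0981 and 0.102). Atp5h was called in 10 of 20 and was lost without SAS replicates 2, 3 or 6 (0.112, 0.116 and 0.0908) or ANT replicates 1 or 3 (0.115 and 0.105). Atp5j overlaps Gabpa on the opposite strand, and 23.8% of the windows of Atp5h are shared with other genes. The strand setting of the counting was not given in the sources used here.

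**Figure D3:**
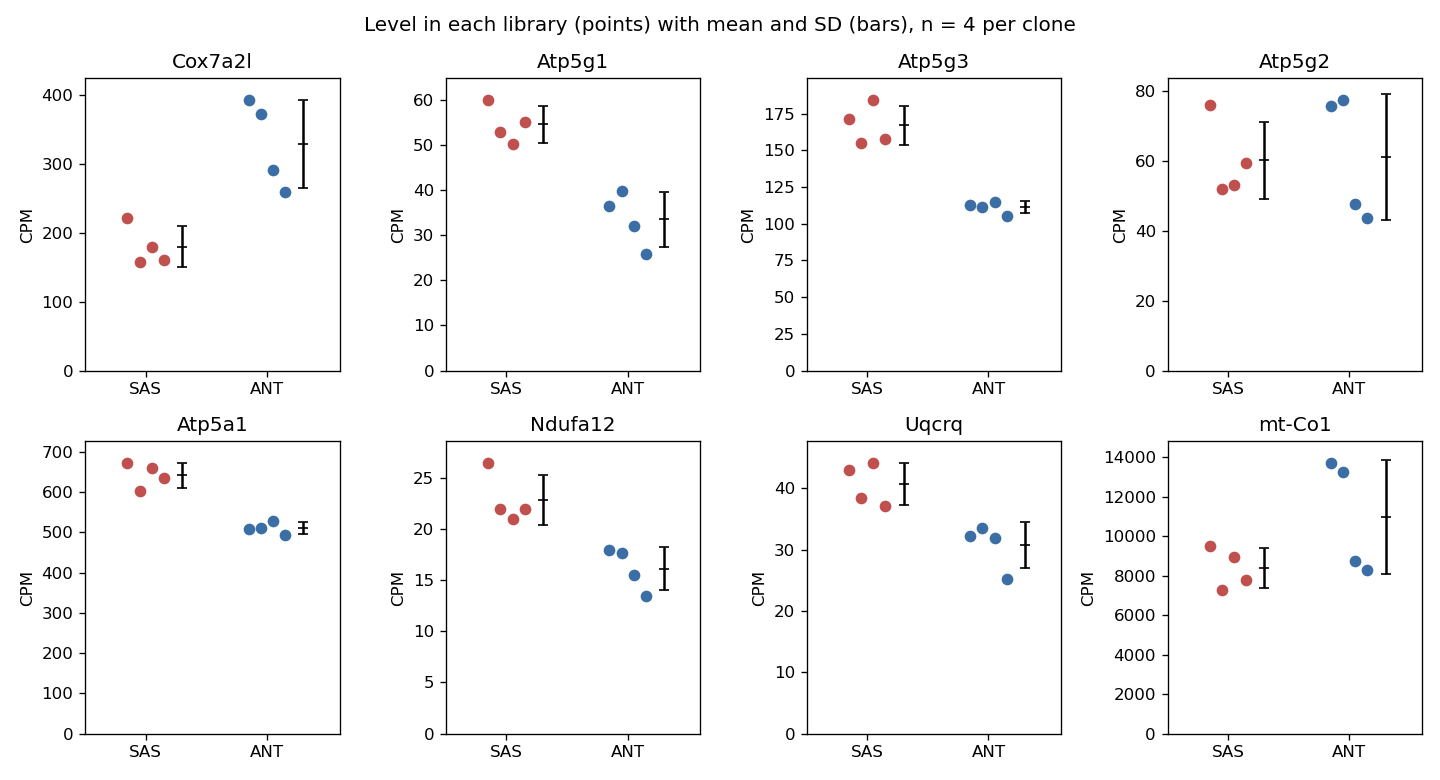
Level in CPM (linear axes from 0) of 8 respiratory chain genes in each SAS (red, left) and ANT (blue, right) library, with the mean and SD of 4 libraries as a black bar beside the points. Cox7a2l is lower in SAS, Atp5g1, Atp5g3, Atp5a1, Ndufa12 and Uqcrq are higher, and Atp5g2 and mt-Co1 overlap, with the 4 ANT libraries in a high and a low pair.

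Complex I, the largest complex, had 36 nuclear subunits, 2 higher and 2 lower in SAS (11.1% called, against 37.4% of all genes). Their median log2 fold change was −0.06, with 17 positive and 19 negative. With library totals alone, 6 genes of complex I were higher and 0 lower, assembly factors included, against 3 and 2 here. In that fit 24.3% of all genes were higher and 13.2% lower. Ndufa12, an accessory subunit of the arm that takes up electrons, had 26.5, 22.0, 21.1 and 22.0 CPM in SAS against 17.9, 17.6, 15.5 and 13.4 CPM in ANT. Every SAS library was above every ANT library (log2 fold change 0.51, SE 0.13, adjusted p 0.0125), and the call was lost without ANT replicates 4 and 5 (0.0612). Ndufv2, an iron-sulfur subunit of the NADH-binding module, had 73.9, 61.4, 63.7 and 66.2 CPM in SAS against 58.1, 53.8, 51.3 and 42.9 CPM in ANT, again without overlap (0.36, SE 0.11, adjusted p 0.0304). The call on Ndufv2 was lost without SAS replicates 1, 3 or 6 (0.083, 0.0528 and 0.0671) or ANT replicates 3, 4 or 5 (0.0568, 0.0729 and 0.0796).

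Ndufa6 and Ndufv3, both accessory subunits, were lower in SAS. Ndufa6 had 50.5, 30.7, 44.0 and 39.4 CPM in SAS against 71.0, 72.7, 56.5 and 45.6 CPM in ANT, and SAS replicate 1 was higher than ANT replicate 5 (log2 fold change −0.58, SE 0.18, adjusted p 0.0308). Ndufv3 had 38.4, 30.2, 33.2 and 31.0 CPM in SAS against 53.3, 54.4, 41.5 and 35.6 CPM in ANT, with the same overlap (−0.48, SE 0.15, adjusted p 0.0305). Each call was lost without SAS replicate 2, 3 or 6 or ANT replicate 1 or 3, with adjusted p of 0.0563 to 0.0768 for Ndufa6 and of 0.0695 to 0.0812 for Ndufv3. Without ANT replicates 1 and 3 together the log2 fold changes were −0.31 for Ndufa6 and −0.22 for Ndufv3. Ndufb8 lay wholly higher in SAS but was not called (0.27, adjusted p 0.0626).

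Of the 8 complex I assembly factors, Ndufaf4 was called, at 47.7, 26.3, 39.1 and 42.9 CPM in SAS against 29.1, 26.0, 24.0 and 23.9 CPM in ANT. SAS replicate 2 lay within the ANT range and the other SAS libraries above it. The log2 fold change was 0.60 (SE 0.17, adjusted p 0.0194), and the call was lost without SAS replicate 1 (0.0555), SAS replicate 6 (0.0564) or ANT replicate 4 (0.053). Ndufaf7 lay wholly higher in SAS and was not called (0.39, adjusted p 0.0633).

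Complex II, which is also an enzyme of the citrate cycle and has no mitochondrially encoded subunit, had 0 of 4 subunits called by edgeR, and 0 at an unadjusted p under 0.05. Of all genes, 37.4% were called and 46.5% reached that unadjusted level in edgeR. Sdha, the flavoprotein that oxidises succinate, had 257.2, 244.3, 234.9 and 241.2 CPM in SAS against 278.5, 293.0, 274.0 and 259.7 CPM in ANT. All SAS libraries were below all ANT libraries by a small margin (log2 fold change −0.18, adjusted p 0.134), and DESeq2 called the gene (0.0414). Sdhb, the iron-sulfur subunit, was at −0.04 (95% interval −0.33 to 0.26), and the membrane anchors Sdhc and Sdhd were at 0.01 (−0.27 to 0.29) and −0.20 (−0.58 to 0.18). Without ANT replicates 4 and 5, Sdha (−0.25, 0.0479) and Sdhd (−0.45, 0.0409) were called lower.

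In complex III, 1 of the 8 nuclear subunits under the naming rule was called (12.5%, against 37.4% of all genes). Cyc1, the cytochrome c1 of this complex, falls outside the rule and was not called (log2 fold change 0.31, adjusted p 0.131). Uqcrq, a small subunit also known as the ubiquinone-binding protein, had 42.9, 38.4, 44.1 and 37.1 CPM in SAS against 32.2, 33.5, 31.9 and 25.2 CPM in ANT, without overlap (log2 fold change 0.41, SE 0.12, adjusted p 0.0209). It was not called without SAS replicate 1 (0.0539) or SAS replicate 3 (0.0625). The 2 most abundant subunits per kilobase, Uqcrh and Uqcr10, had log2 fold changes of −0.15 (95% interval −0.56 to 0.25) and 0.29 (−0.11 to 0.70). Without ANT replicates 1 and 3, Uqcr10 was called higher (0.66, adjusted p 0.00493).

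In complex IV, 12 of 19 nuclear subunits were tested and 1 was called (8.33% of those tested, against 37.4% of all genes). Cox5a, a subunit on the matrix side, had 47.5, 40.4, 63.2 and 45.9 CPM in SAS against 31.1, 31.0, 41.2 and 36.8 CPM in ANT. SAS replicate 2 was just below ANT replicate 4 (log2 fold change 0.49, SE 0.15, adjusted p 0.029). The call was lost without SAS replicate 3 (0.0829), ANT replicate 1 (0.0696) or ANT replicate 3 (0.0727). Of the 12, 10 had a positive log2 fold change, with a median of 0.13. Cox4i1, the regulatory subunit used in most tissues, averaged 174 ± 15.8 CPM in SAS, against 185 ± 21.1 CPM in ANT (−0.09, 95% interval −0.34 to 0.16). Cox6b1 (0.13, −0.23 to 0.50), Cox8a (0.12, −0.18 to 0.42), Ndufa4 (0.16, −0.22 to 0.53) and Cox6a1 (−0.21, −0.46 to 0.04) were not called either, though Cox8a was called higher without ANT replicates 1 and 3 (0.34, adjusted p 0.0441).

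Tissue-specific isoforms of complex IV were at or near the detection limit in both clones. The genes known from heart and skeletal muscle, Cox6a2, Cox7a1 and Cox8b, had 2 counts in 1 SAS library and 0 in ANT for Cox6a2, 2 to 10 counts per SAS library and 2 to 6 per ANT library for Cox7a1, and 0 counts throughout for Cox8b. Cox8c and Cox7b2, known from testis, and Ndufa4l2, a hypoxia-induced relative of Ndufa4, also had 0 counts in all 8 libraries. A count of 0 allows up to 0.0914 to 0.110 CPM per library, taking 3 counts as the limit, and covers counting error only. Cox4i2, the isoform known from lung and induced by low oxygen, had 10, 2, 13 and 4 counts in SAS and 1 count in each ANT library. These 7 genes were too low to be tested. Cox6b2, a testis isoform, passed the filter at 0.723 ± 0.403 CPM in SAS, against 0.592 ± 0.0910 CPM in ANT (0.29, 95% interval −0.63 to 1.22). The ubiquitous partners Cox4i1, Cox6a1, Cox6b1, Cox7a2 and Cox8a stood at 43.2 to 185 CPM on average.

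Summed levels per complex overlapped between the clones. The nuclear subunits of complex V summed to 2875, 2332, 2651 and 2566 CPM in SAS and 2514, 2478, 2235 and 1994 CPM in ANT. Those of complex I summed to 1639, 1312, 1396 and 1475 CPM in SAS and 1732, 1711, 1388 and 1206 CPM in ANT. The ratio of mitochondrial to nuclear sums of complex IV did separate the clones, at 10.7, 10.6, 11.0 and 10.1 in SAS against 16.8, 16.5, 11.8 and 13.6 in ANT. mt-Co1 makes up nearly all of the numerator. Over all complexes the same ratio was 3.02, 2.86, 3.26 and 2.86 in SAS against 4.27, 4.07, 3.12 and 3.34 in ANT, and overlapped.

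Much of the spread of these genes ran along particular libraries, across complexes. Over all genes tested, the second principal component, an axis of variation shared by many genes, took 13.7% of the variance. It placed the SAS libraries at 18.9, −16.9, −5.39 and 7.73 and the ANT libraries at 21.1, 20.8, −21.3 and −24.9. A split of the ANT libraries into 2 pairs was thus not particular to the respiratory genes. Among the 90 nuclear members tested, SAS replicate 1 was the highest of the 4 SAS libraries for 72 (80.0%) and SAS replicate 2 the lowest for 66 (73.3%), while over all 12619 genes those shares were 29.9% and 29.9%. In ANT, replicate 5 was the lowest library for 76 of 90 (84.4%, against 29.4% of all genes) and replicate 1 the highest for 50 (55.6%, against 28.4%). The mitochondrially encoded genes followed in part: ANT replicate 1 was the highest ANT library for 11 of 13, ANT replicate 5 the lowest for 10, and SAS replicate 2 the lowest SAS library for 11. The nuclear members took 0.720%, 0.578%, 0.634% and 0.655% of all counts in SAS and 0.649%, 0.652%, 0.563% and 0.501% in ANT. Counts from 88 cytosolic ribosomal protein genes varied in the same libraries, with 6.77%, 4.85%, 5.56% and 5.46% in SAS and 9.11%, 8.87%, 7.20% and 6.03% in ANT. Levels of markers of other cell types also varied by library. The 4 erythroid markers summed to 1.58, 4.94, 1.17 and 0.899 CPM in SAS and 0.690, 0.882, 4.94 and 10.8 CPM in ANT. The 6 myeloid markers summed to 2.41, 5.68, 2.00 and 2.38 CPM in SAS and 0.759, 0.662, 1.26 and 1.45 CPM in ANT. The 3 neutrophil markers summed to 0, 2.28, 0.138 and 0.193 CPM in SAS and 0, 0, 0.180 and 1.38 CPM in ANT. The 3 plasma cell markers summed to 71.2, 74.6, 66.7 and 74.2 CPM in SAS and 48.2, 51.2, 56.8 and 54.7 CPM in ANT. In SAS replicate 2 and ANT replicate 5 the nuclear members were most often lowest. These libraries had the highest erythroid, myeloid, neutrophil, B cell and platelet sums of their clone. For plasma cell, dendritic cell, natural killer cell and stroma markers SAS replicate 2 was highest in SAS, but ANT replicate 5 was not highest in ANT. ANT replicate 5 had the lowest natural killer cell (0.0345 CPM) and stroma (228 CPM) sums of its clone. Pecam1 made up nearly all of the stroma sum in every library, with 227 CPM of it in ANT replicate 5. Xbp1 made up most of the plasma cell sum (SAS mean 65.1 CPM, ANT mean 47.4 CPM). Itga2b made up nearly all of the platelet sum (SAS mean 3.35 CPM, ANT mean 5.33 CPM). Whether these transcripts came from stroma, plasma cells or platelets was not tested. Cd8a with Cd8b1 summed highest in SAS replicate 3 and ANT replicate 3. The part of the ribosomal protein genes and of these markers in the result was not tested.

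**Figure D4:**
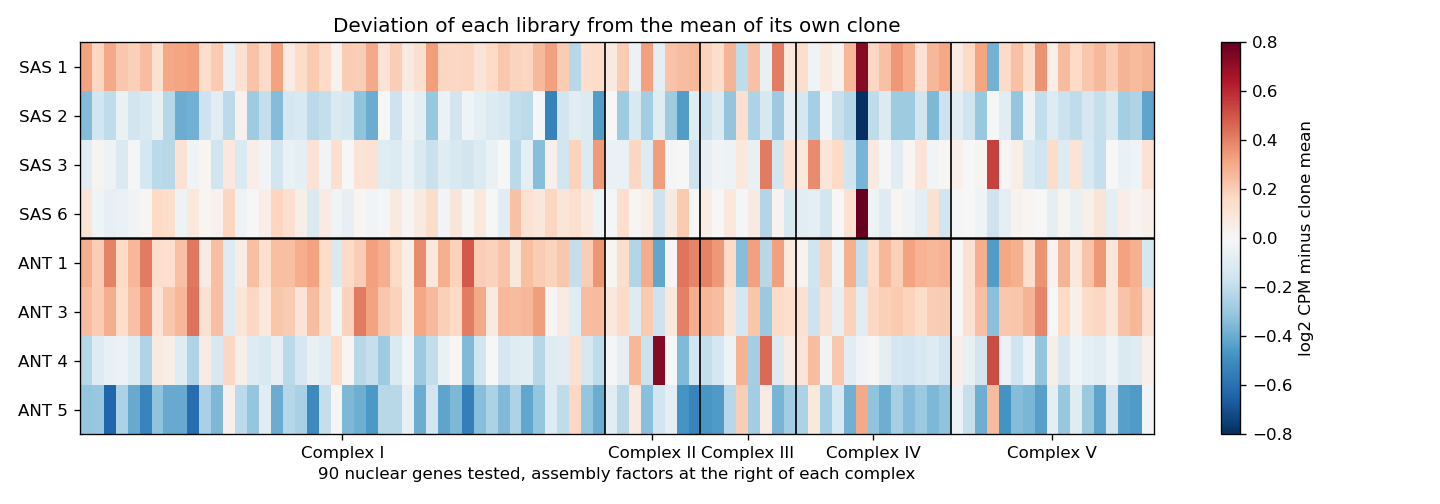
Difference of each library from the mean of its own clone (log2 CPM, colour clipped at 0.8 in either direction) for the 90 nuclear genes tested, ordered by complex, with SAS libraries above ANT libraries. Red runs along SAS replicate 1 and ANT replicates 1 and 3, and blue along SAS replicate 2 and ANT replicate 5, in all complexes.

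The number of members called moved with the choice of ANT libraries. Without ANT replicates 4 and 5, 21 nuclear members (23.3%) were lower in SAS, near the 21.3% of all genes called lower in that fit. Without ANT replicates 1 and 3, 20 (22.2%) were higher and 1 lower, against 19.3% and 16.8% of all genes. The counts moved to about the share of the table in 1 direction and stayed below it in the other. Leaving out 1 library gave 5 to 9 higher and 1 to 10 lower (at most 11.1%), against 17.3% to 19.1% and 13.5% to 17.4% of all genes, with 5 higher without SAS replicate 1 or 3 and 10 lower without ANT replicate 5. Only 1 was lower without any one of SAS replicates 2, 3 and 6 or ANT replicates 1 and 3. None of the 13 called members turned sign in any alternative, and 3 of them (Cox7a2l, Atp5g1 and Atp5g3) stayed called in all but the test against a 1.5-fold change.

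Genes that serve the chain but fall outside the naming rule were read from 7 lists. Assembly factors outside the rule showed 0 of 31 tested higher and 6 lower in SAS, with a median log2 fold change of −0.13. The share lower, 19.4%, was near the 17.7% of all genes, and the share called in either direction was also 19.4%, against 37.4%. The 6 were Cox14, Cox16, Cox20, Coa6, Uqcc3 and Tmem126b, the first 4 known to act on complex IV, Uqcc3 on complex III and Tmem126b on complex I. Cox14, which stabilises newly made mt-Co1 protein, averaged 17.0 ± 2.08 CPM in SAS, against 27.8 ± 2.98 CPM in ANT (−0.71, adjusted p 0.00169), and the log2 fold change of Tmem126b was −0.69 (adjusted p 0.0105). With library totals alone 1 was higher and 2 were lower (3.23% and 6.45%, against 24.3% and 13.2% of all genes). Without SAS replicate 2, ANT replicate 1 or ANT replicate 3 the number lower was 2, where 14.7% to 15.4% of all genes were lower. Cox16, Cox20, Coa6 and Uqcc3 were named after their values were seen.

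Of 24 genes that copy, transcribe or process mitochondrial DNA and RNA, 1 was higher and 4 were lower, with a median of −0.11. The 4 lower are 16.7%, near the 17.7% of all genes, and the 5 called are 20.8%, against 37.4%. Polg2, the accessory subunit of the mitochondrial DNA polymerase, averaged 20.3 ± 3.92 CPM in SAS, against 35.6 ± 4.89 CPM in ANT (−0.81, adjusted p 0.00255). Tfb2m, a transcription initiation factor, averaged 19.8 ± 2.51 CPM in SAS, against 29.5 ± 2.70 CPM in ANT (−0.57, adjusted p 0.00496). The others called lower were Tfam and Trmt10c, named after their values were seen, and Supv3l1, an RNA helicase, was higher (0.32, adjusted p 0.0342) and lost its call without any one of 5 libraries. Under library totals 4 of the 24 were higher and 3 lower (16.7% and 12.5%, against 24.3% and 13.2% of all genes).

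The carriers that exchange ADP, ATP and phosphate across the inner membrane, with the outer membrane channels, had 1 of 6 higher (16.7%, against 19.8% of all genes) and 0 lower. Slc25a5, an ADP/ATP exchanger, averaged 453 ± 58.6 CPM in SAS, against 307 ± 72.0 CPM in ANT (0.56, adjusted p 0.0257). It was lost without SAS replicate 1, 3 or 6 or ANT replicate 4 or 5 (0.0518 to 0.0729). The citrate cycle list had 1 of 18 higher and 3 lower (5.56% and 16.7%, against 19.8% and 17.7% of all genes). Idh2, the mitochondrial NADP-dependent isocitrate dehydrogenase, averaged 42.1 ± 3.54 CPM in SAS, against 81.0 ± 16.5 CPM in ANT (−0.94, adjusted p 0.000648). Pcx, which makes oxaloacetate from pyruvate, averaged 0.964 ± 0.662 CPM in SAS, against 2.91 ± 0.713 CPM in ANT (−1.59, adjusted p 0.0137). Fh1, fumarase, averaged 48.9 ± 6.60 CPM in SAS, against 34.3 ± 5.53 CPM in ANT (0.51, adjusted p 0.0166, and 0.0533 without ANT replicate 4).

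Coenzyme Q synthesis had 2 of 13 higher and 2 lower, 15.4% in each direction, against 19.8% and 17.7% of all genes. Coq7 (0.88, adjusted p 0.014) and Coq4 (0.82, 0.0406) were higher, and Coq2 (−0.36, 0.0134) and Coq5 (−0.40, 0.0347) were lower, with Coq2 and Coq5 not called under library totals. Coq4 missed the threshold without SAS replicate 1, 3 or 6 or ANT replicate 1 or 3 (adjusted p 0.0534 to 0.112), and Coq5 without SAS replicate 1, 2 or 3 or ANT replicate 1 or 3 (0.06 to 0.104). Cytochrome c, the complex III subunit Cyc1 and the genes that deliver heme and copper to the chain had 0 of 8 called by edgeR, against 37.4% of all genes. Their median log2 fold change was 0.06. At an unadjusted p under 0.05 (edgeR) there were 2 of the 8, against 46.5% of all genes. Under library totals 2 (25%) were higher and 0 lower, against 24.3% and 13.2% of all genes. Coregulators of oxidative genes had 2 of 9 higher (22.2%, against 19.8% of all genes) and 0 lower. Myc, a growth factor-responsive transcription factor, averaged 109 ± 17.9 CPM in SAS, against 53.4 ± 25.5 CPM in ANT (1.03, adjusted p 0.0229), and missed the threshold without SAS replicate 3, SAS replicate 6 or ANT replicate 1 (0.0558, 0.0585 and 0.0517). Pprc1, a coactivator of the PGC-1 family, averaged 127 ± 14.6 CPM in SAS, against 92.9 ± 21.7 CPM in ANT (0.45, adjusted p 0.0498). Pprc1 missed the threshold without any one of SAS replicates 2, 3 and 6 or ANT replicates 1, 3 and 4 (0.0674 to 0.118).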

How the data were processed

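The authors deposited raw counts per gene for 39056 Ensembl gene IDs and 8 libraries. Per the labels' protocols the libraries were strand-specific TruSeq mRNA libraries, which select poly(A) RNA. Per the submitters' processing notes, reads were aligned with STAR and counted with featureCounts on mm10. Versions, annotation release, strand setting and the handling of multi-mapped reads are not given in the sources used here. IDs were matched without version to GENCODE M21 (38872 matched, 184 did not). A second Atp5o gene ID of that annotation has no row.

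All genes passing edgeR's filterByExpr (12619) were tested on all 8 libraries with the robust quasi-likelihood test of edgeR 4.0.16 in R 4.3.3, with TMM factors and no covariates. Genes were called at a Benjamini-Hochberg adjusted p under 0.05 over all of them. The SE was derived from the fold change and its F statistic. CPM uses TMM-scaled library sizes. Per-kilobase ranks used the union of each gene's coding transcripts. Shared sequence was measured as 50-base windows found in another annotated gene. The script was tested on simulated counts.

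Named genes were all mitochondrial ones, per complex up to 3 called non-overlapping genes in each direction with at least 10 CPM and the 2 most abundant per kilobase, the isoform sets, the Sdh subunits, genes under the filter, and up to 2 called genes per list and direction. Ndufaf4, Ndufv3, Cox5a, Atp5h, Atp5j, Ndufb8 and Ndufaf7 were added after their values were seen. One gene that the rule named is not reported here. The members and lists were chosen with earlier results of these data known. Alternatives were RLE, upper-quartile and total scaling, other filters, DESeq2 1.42.0, limma-voom (limma 3.58.1), a test against 1.5-fold, a threshold of 0.01, omitted libraries and a replicate block.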

Additional observations from a re-analysis of the deposited data

Results flagged for a closer look

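With 4 libraries per clone, each of the 103 members tested was screened in each clone for 1 library far from the other 3 (Dixon's test at the 95% level, 206 screens). It marked 4, where chance alone marks about 1 in 20. Ndufa3, a complex I accessory subunit, was at 33.2 CPM in ANT replicate 5 and at 43.8 to 45.9 CPM in the other ANT libraries. Ndufa8, another, was at 27.2 CPM in ANT replicate 5 and at 34.1 to 35.4 CPM in the others. Sdhaf1, an assembly factor of complex II, was at 22.1 CPM in SAS replicate 3 with 15.7 to 16.7 CPM in the other SAS libraries, and at 19.3 CPM in ANT replicate 4 with 8.69 to 10.4 CPM in the other ANT libraries. Sdhaf1 overlaps another gene on the opposite strand. None of the 3 genes was called.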

How the results depend on the processing

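Against 9 nuclear members higher and 4 lower, and 0 mitochondrial members either way, the counts moved as follows. Lower nuclear members numbered 1 with library totals alone, 7 with DESeq2, 0 against a 1.5-fold change, 21 without ANT replicates 4 and 5, 1 without ANT replicates 1 and 3, and 1 at an adjusted p under 0.01. Of all genes, 13.2% were lower with library totals alone, 19.9% with DESeq2 and 5% against a 1.5-fold change. The shares were 21.3% without ANT replicates 4 and 5 and 16.8% without ANT replicates 1 and 3. Higher nuclear members numbered 0 against a 1.5-fold change, 20 without ANT replicates 1 and 3, and 2 at an adjusted p under 0.01. At that stricter threshold 3044 of all 12619 genes were called, 1738 of them higher. Of all genes, 9.55% were higher against a 1.5-fold change, 19.3% without ANT replicates 1 and 3 and 24.3% with library totals alone. Lower mitochondrial members numbered 4 without ANT replicates 4 and 5. Leaving out 1 library gave 5 to 9 higher and 1 to 10 lower nuclear members, and 0 to 1 lower mitochondrial members. Of all genes, 17.3% to 19.1% were higher and 13.5% to 17.4% lower in those fits. The cause of these movements was not tested. No called gene named here turned sign. Library totals alone moved the median log2 fold change of all genes by 0.10 and the share of calls that were higher to 64.8%, against 52.8%; they gave 2 higher for cytochrome c and heme delivery, 1 higher and 2 lower for assembly factors outside the rule, 4 higher for mitochondrial DNA expression and 0 lower for coenzyme Q synthesis, and the summed level of complex II had a log2 ratio of −0.041, against −0.14. Leaving out 1 library, an alternative added after seeing the data for the lists, gave 2 to 7 lower assembly factors, 0 to 1 higher and 2 to 4 lower for mitochondrial DNA expression, 0 to 3 higher and 0 to 1 lower coregulators, 0 to 1 higher for the citrate cycle, 0 to 2 higher carriers, 1 to 2 higher and 1 to 2 lower for coenzyme Q, and 0 to 1 higher for cytochrome c.

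Replicate numbers 1 and 3 occur in both clones, and their deviations correlated at 0.47 for number 1 and −0.22 for number 3. SAS replicate 1 correlated at 0.43 with ANT replicate 3, which has another number. The labels state no pairing, and these correlations cannot decide whether the numbers pair the samples. Numbers 2, 4, 5 and 6 occur in 1 clone only, so a fit with the number as a block rests on SAS replicates 1 and 3 against ANT replicates 1 and 3, with 1 residual degree of freedom. With the replicate number as a block, 12 nuclear members were higher, 15 nuclear and 2 mitochondrial members were lower, and mt-Co1 had a log2 fold change of −0.55 (edgeR, adjusted p 0.00037). Under the block 24.9% of all genes were higher and 21.1% lower. Ndufa12 (0.0502), Ndufv2 (0.0684) and Supv3l1 (0.186) lost their calls under it. Genes with 10 to 226 counts per library, among them 6 mitochondrial ones, are limited by depth and by shared sequence.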
